A study of Homo sapiens with 30 samples.

Results

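The ATF4 programme of the integrated stress response was followed in human eHAP cells through 36 of the 61487 genes in the deposited table, and all 36 passed the filter on low counts that left 31444 genes for testing. The set is a module of named genes: the transcription factor ATF4, the factors that act with or after it, and genes it is known to switch on. Its members are defined by gene symbol, and the list was drawn up with earlier results of these data known. eHAP is a haploid line derived from HAP1 cells, and the FNLS derivative used throughout carries a base editor. Genotypes were SUGP1 E554K, SUGP1 G603N, PHF5A 2xTL (a 6-nucleotide insertion at T40-L41), SF3B1 T1080I and a control with a non-targeting sgRNA. Each was treated with 2 nM pladienolide B (PB) or with its solvent DMSO for 3 h, and each of the 10 groups held 3 libraries. Each mutant genotype was represented by 3 lines grown from single cells, so its spread is between clones, and the control libraries are 3 replicates of 1 line, so their spread may be smaller for that reason. PB binds the SF3b complex, where PHF5A and SF3B1 form its pocket, and blocks branch point recognition by the spliceosome, and SUGP1 is a splicing factor with a G-patch domain that binds SF3B1.

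In the integrated stress response, kinases that sense starvation, misfolded protein, viral RNA or mitochondrial damage phosphorylate the translation factor eIF2. Most translation slows, but the ATF4 mRNA, which carries upstream open reading frames, is translated more, so ATF4 protein can change without a change in its mRNA. ATF4 protein binds DNA with C/EBP partners at TGATGNAA sequences and switches on amino acid transporters, amino acid synthesis enzymes and feedback regulators. Only mRNA was measured here, and in bulk RNA fewer expressing cells and less RNA per cell cannot be told apart.

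The TGATGNAA motif, searched on both strands in RefSeq windows (GRCh38.p14) of 300 bases starting 250 bases before a gene's start, was present for 9 of the 28 members with a window (32.1%) and for 4.46% of 27305 genes. A gene can have several starts, and the 28 members had 47 windows and the 27305 genes 35116. Of all windows 3.62% held the motif. With the shorter TGATGNA, which contains every longer match, 10 of 28 members (35.7%) and 12.11% of genes had a match. Shown are 2 members whose RNA was lower after PB in at least 1 genotype in the edgeR fit of group means (CHAC1 and SLC1A4). Also shown are 3 with the motif that did not pass in that fit (JDP2, ASNS and SLC1A5). Each runs 5′ to 3′ on the gene's strand, and the capitals mark the match, which lies on the opposite strand in CHAC1 and SLC1A4.
CHAC1: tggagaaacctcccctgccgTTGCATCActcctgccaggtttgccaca
SLC1A4: tccgcgttcgcggctcccgtTTGCATCA
JDP2: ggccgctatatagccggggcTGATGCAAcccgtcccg
ASNS: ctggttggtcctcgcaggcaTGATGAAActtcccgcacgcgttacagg
SLC1A5: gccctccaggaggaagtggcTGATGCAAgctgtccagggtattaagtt
These stretches lie at chr15:40953242-40953289 (+), chr2:64989372-64989399 (+), chr14:75427986-75428022 (+), chr7:97872449-97872496 (-) and chr19:46784884-46784931 (-). The match began 209, 7, 16, 68 and 97 bases before the start used for its window. CHAC1 had 1 such start, SLC1A4 and ASNS had 2, and JDP2 and SLC1A5 had 3. CHAC1, SLC1A4, JDP2 and SLC1A5 all carry the TGATGCAA form of the motif on one strand. SLC1A5 showed no change after PB that passed a test in any genotype. JDP2 fell in the control only in a fit with a term for replicate number. The other matching members were ATF3, CEBPG, SLC3A2 and SLC7A1. SESN2 and CTH, lower after PB in at least 1 genotype, and DDIT3, higher in at least 1, had windows without a match. A match is a sequence and not evidence of binding. GPT2, EIF4EBP1, SHMT2, SLC7A11, NUPR1, PYCR1, ALDH1L2 and PSPH had no entry.

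Library totals ran from 31592502 to 75037259 estimated counts. Counts of the mitochondrial genome made up 10.1% to 17.9% of a library. The 6 haematopoietic markers were each below 1 CPM (counts per 1000000) on average, summing to 0.356 to 1.49 CPM in a library, although HAP1 descends from a leukaemia. The neural set summed to 696.8 to 1329.0 CPM and was led by SOX2 at 892.4 CPM, the mesenchymal set to 439.1 to 716.0 CPM and the epithelial set to 20.7 to 155.8 CPM. Measured by the median distance of 11998 genes from the other libraries of the group on the log2 scale, libraries lay 0.101 to 0.271 away. The farthest were DMSO line 3 of SUGP1 E554K (0.268) and of SUGP1 G603N (0.271). Among control libraries DMSO replicate 3 was farthest (0.240), and there 24 of the 33 members that averaged 4 CPM or more lay above the mean of the other DMSO replicates. Processed pseudogenes made up 2.01% to 2.42% of counts in control cells with PB and 1.63% to 1.97% in control cells with DMSO. The part of these differences in the results was not tested.

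ATF4 mRNA was the most abundant member per unit length. In control cells with DMSO it reached 134.7 ± 20.4 CPM per kb of gene model, followed by EIF4EBP1, an inhibitor of cap-dependent translation, at 112.5 ± 19.2 CPM per kb (SD, n = 3 each). Serine synthesis came next with PSAT1 at 80.8 ± 5.72 CPM per kb, then the leucine transporter SLC7A5 at 48.1 ± 2.91 and the glutamine transporter SLC1A5 at 41.9 ± 7.67 CPM per kb. The means of ATF4 and EIF4EBP1, and those of SLC7A5 and SLC1A5, lay within the summed SDs of their neighbours, whereas PSAT1 stood clear of both. ASNS, the asparagine synthetase that is a textbook ATF4 target, was near the bottom of the order at 0.349 ± 0.168 CPM per kb. Only ALDH1L2, a mitochondrial folate enzyme, at 0.127 ± 0.0392, and NUPR1, a stress-induced chromatin protein, at 0.0155 ± 0.0162 CPM per kb, were lower. The order depends on the length of the gene model. PHGDH, at 175.2 CPM beside 178.2 CPM for PSAT1 in these libraries, stood at rank 12, with 9187 bases against 2206 for PSAT1. Between libraries of a group, the median SD of log2 CPM over the 33 members averaging 4 CPM or more was 0.177 in SUGP1 E554K with PB and 0.286 with DMSO. In SUGP1 G603N it was 0.227 with PB and 0.231 with DMSO. PHF5A 2xTL gave 0.216 (PB) and 0.137 (DMSO), SF3B1 T1080I 0.263 (PB) and 0.207 (DMSO), and control cells 0.111 (PB) and 0.211 (DMSO). Over all 11998 genes of that level the median was 0.192 (PB) and 0.216 (DMSO) in SUGP1 E554K, 0.209 and 0.229 in SUGP1 G603N, 0.156 and 0.129 in PHF5A 2xTL, 0.156 and 0.130 in SF3B1 T1080I, and 0.113 and 0.171 in control cells. The members' median was the higher one in 8 of the 10 groups, all but SUGP1 E554K and control cells with PB.

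**Figure D1:**
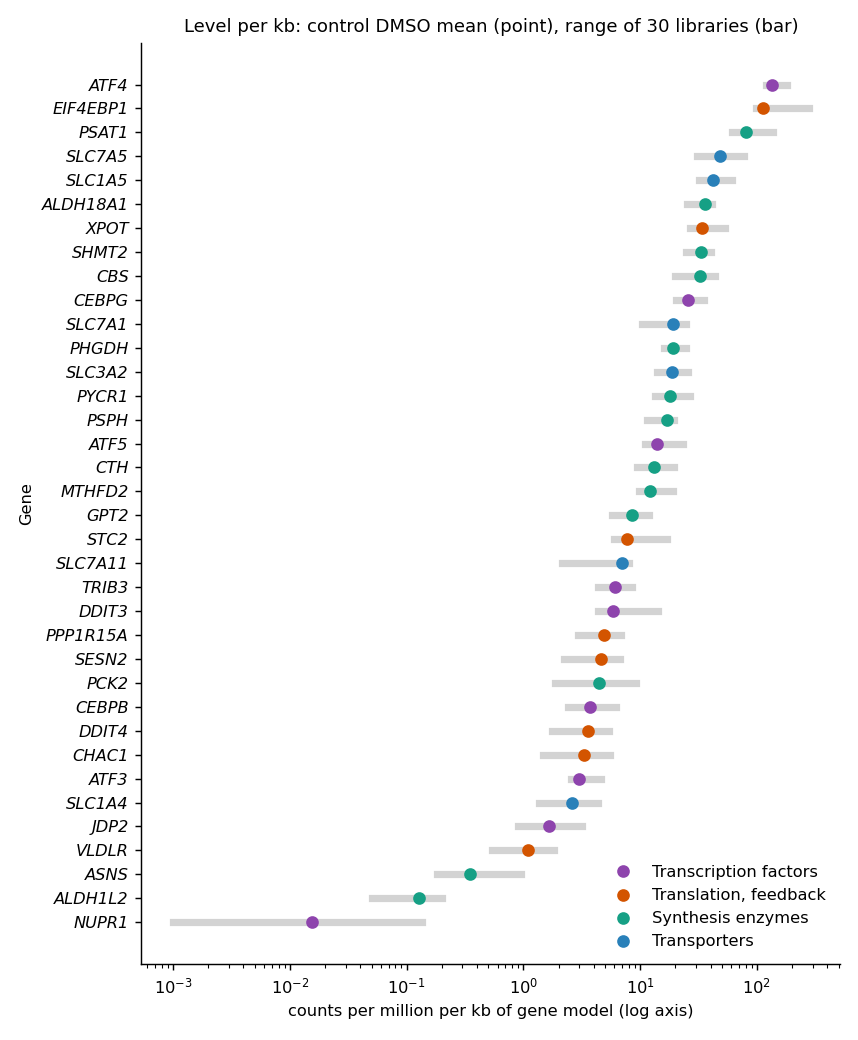
Level of the 36 members in CPM per kb of gene model (log axis), ordered by the mean of 3 control DMSO libraries (points), with bars spanning the lowest and highest of all 30 libraries. ATF4 tops the order at 134.7 and NUPR1 ends it at 0.0155 CPM per kb, and for NUPR1 the left end of the bar stands for libraries at 0, which a log axis cannot show.

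No change of ATF4 mRNA after 3 h of PB passed the test in any genotype. ATF4 (chr22:39519695-39522685 on hg38) had 360.3, 433.1 and 454.8 CPM with PB and 312.5, 364.1 and 451.0 CPM with DMSO in SUGP1 E554K lines. In SUGP1 G603N lines it had 358.6, 334.9 and 455.4 CPM with PB and 350.6, 414.3 and 382.8 CPM with DMSO. The ranges overlapped in both SUGP1 genotypes. PHF5A 2xTL lines had 354.5, 424.2 and 434.6 CPM with PB and 403.6, 428.2 and 416.0 CPM with DMSO, and SF3B1 T1080I lines 338.9, 476.3 and 419.7 CPM with PB and 319.4, 417.1 and 431.7 CPM with DMSO. Control cells had 348.1, 344.0 and 360.8 CPM with PB and 313.8, 329.4 and 412.8 CPM with DMSO, again overlapping. The log2 change was 0.15 in SUGP1 E554K, 0.00 in SUGP1 G603N, -0.04 in PHF5A 2xTL, 0.08 in SF3B1 T1080I and -0.00 in the control (SE 0.15 each; lowest adjusted p = 0.709, edgeR). The 95% interval in the control ran from -0.30 to 0.29, so a change within that range in either direction could have passed unseen. The pseudogenes ATF4P3 and ATF4P4 held means of 1004.6 and 738.1 counts a library, against 18632.0 for ATF4, and the handling of reads that match several copies is not given in the sources.

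Among the 36 members, a small group was changed by PB in the SUGP1 genotypes and the control, mostly downward, and none passed the test in either SF3b pocket genotype. In SUGP1 E554K 4 members fell and 1 rose, in SUGP1 G603N 4 fell, none passed in PHF5A 2xTL or SF3B1 T1080I, and 3 fell in the control, by edgeR's quasi-likelihood test at an adjusted p under 0.05. Of all tested genes, 4.39% passed in SUGP1 E554K (3.15% lower and 1.24% higher), 3.85% in SUGP1 G603N (2.61% lower and 1.24% higher), 0.00318% in PHF5A 2xTL, 0.00318% in SF3B1 T1080I and 4.44% in the control (3.34% lower and 1.1% higher). Among genes averaging 4 CPM or more, as 33 of the members do, it was 9.18% in SUGP1 E554K, 7.22% in SUGP1 G603N and 9.05% in the control. Among those 33 members it was 15.2% in SUGP1 E554K, 12.1% in SUGP1 G603N and 9.09% in the control, so the control share was that of other well-expressed genes and the SUGP1 shares exceeded it by a few genes at most. At an unadjusted p under 0.05 there were 9 members in SUGP1 E554K, 6 in SUGP1 G603N, 0 in PHF5A 2xTL, 0 in SF3B1 T1080I and 10 in the control. The median log2 change over the members was -0.03 in SUGP1 E554K, -0.08 in SUGP1 G603N, -0.05 in PHF5A 2xTL, 0.01 in SF3B1 T1080I and -0.07 in the control, beside -0.03, -0.03, -0.04, 0.02 and -0.04 over genes of at least 4 CPM. These medians had no stable sign: with any 1 library left out they ran from -0.07 to 0.04 in SUGP1 E554K, from -0.12 to 0.00 in SUGP1 G603N, from -0.13 (without PB line 2) to 0.03 (without PB line 1) in PHF5A 2xTL, and from -0.11 (without PB line 2) to 0.13 (without PB line 1 or DMSO line 2) in SF3B1 T1080I. In the control they stayed between -0.12 and -0.05.

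In the mutants, PB and DMSO libraries with the same number came from the same line, and same-numbered libraries deviated together in every genotype. With a term for each line (replicate number in the control), 10 members passed in SUGP1 E554K, 8 in SUGP1 G603N, 0 in PHF5A 2xTL, 0 in SF3B1 T1080I and 11 in the control, where the share of all tested genes was 11.9%, 9.43%, 0.00318%, 0.0159% and 9.84%. Among genes of at least 4 CPM that share was 26% in SUGP1 E554K, 19.6% in SUGP1 G603N and 21.4% in the control. Among the 33 members of that level it was 30.3% in SUGP1 E554K, 24.2% in SUGP1 G603N and 33.3% in the control. PB libraries lay wholly below the DMSO libraries for 6 members in SUGP1 E554K, 5 in SUGP1 G603N, 2 in PHF5A 2xTL, 3 in SF3B1 T1080I and 12 in the control (9.91%, 7.98%, 3.97%, 4.35% and 13.8% of tested genes), and wholly above for 3, 1, 1, 0 and 3 (8.06%, 6.62%, 4.15%, 3.25% and 11.5%). These shares are of all tested genes. They were not taken among genes of at least 4 CPM, where 33 members lie, so the counts do not set the members apart.

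**Figure D2:**
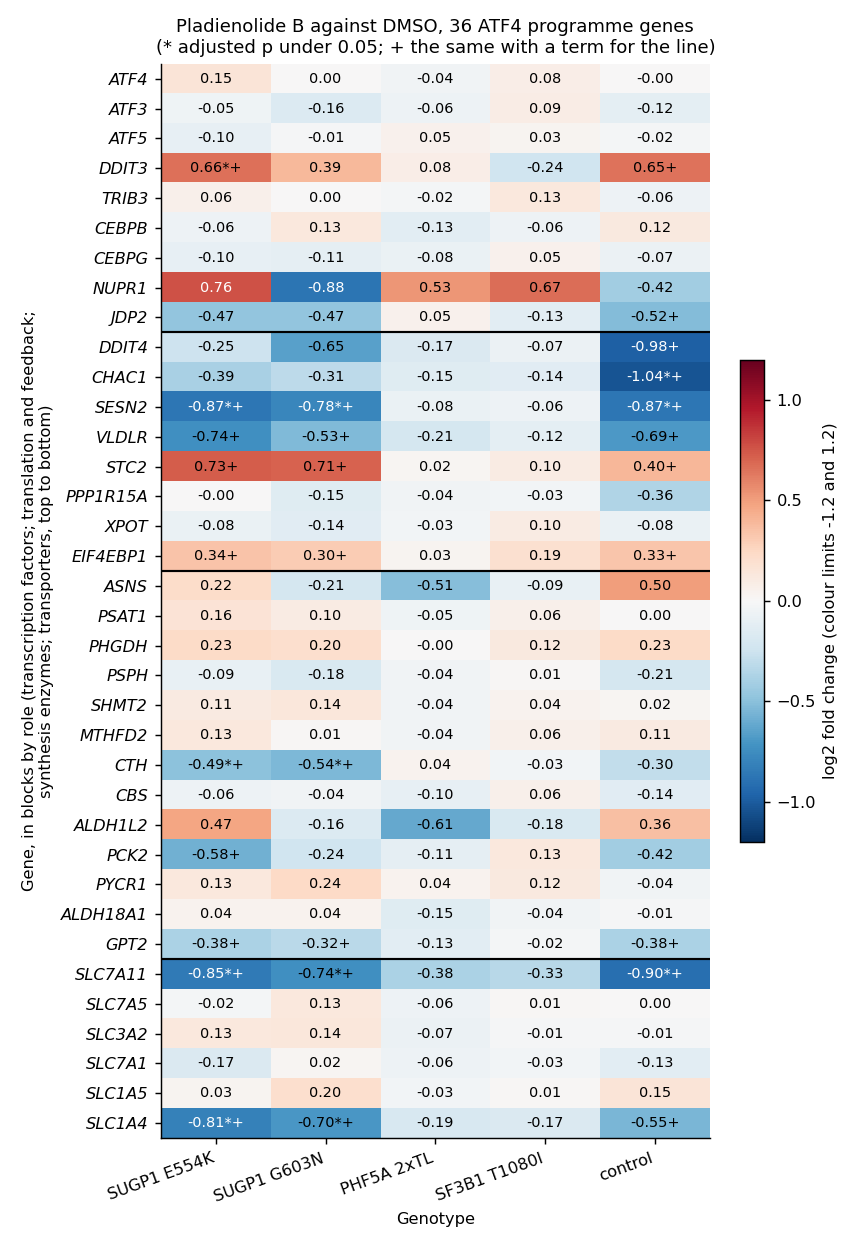
Log2 change of each member with PB against DMSO (colour, blue lower and red higher with PB) in the 5 genotypes, members grouped by role; * marks adjusted p under 0.05 by edgeR and + the same with a term for each line. Marks stand in the columns of SUGP1 E554K, SUGP1 G603N and the control, and none in PHF5A 2xTL or SF3B1 T1080I.

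Of the 6 amino acid transporters, SLC7A11 fell with PB in SUGP1 E554K, SUGP1 G603N and control cells and SLC1A4 in both SUGP1 genotypes, while SLC7A5, SLC3A2, SLC7A1 and SLC1A5 passed in none. SLC7A11 imports cystine for glutathione synthesis. It had 20.7, 34.3 and 22.4 CPM with PB and 45.1, 56.5 and 37.8 CPM with DMSO in SUGP1 E554K, and 29.2, 34.7 and 37.1 CPM with PB and 54.2, 59.4 and 55.3 CPM with DMSO in SUGP1 G603N. In the control it had 40.3, 38 and 29.6 CPM with PB and 76.6, 76.8 and 48.3 CPM with DMSO. Every PB library lay below every DMSO library in these 3 genotypes. The log2 change was -0.85 ± 0.20 in SUGP1 E554K (SE; adjusted p = 0.00984), in SUGP1 G603N -0.74 ± 0.20 (adjusted p = 0.0278) and -0.90 ± 0.20 in the control (adjusted p = 0.00512, edgeR), which is 1.87-fold lower in the control. PHF5A 2xTL had 43.6, 62 and 47.3 CPM with PB and 57, 66.8 and 74.6 CPM with DMSO (-0.38 ± 0.19), and SF3B1 T1080I had 47.2, 62.7 and 49.9 CPM with PB and 59.9, 75.9 and 64.5 CPM with DMSO (-0.33 ± 0.19). Those ranges overlapped and neither change passed, although each line's PB library was below its own DMSO library. The call ended in the control without PB replicate 3 (adjusted p = 0.0607), in SUGP1 E554K without DMSO line 2, PB line 1 or PB line 3 (0.065 to 0.0861), and in SUGP1 G603N without DMSO line 1 or 2 or PB line 1 or 2 (0.0653 to 0.109). The adjusted p with the line term was 2.51e-06 in SUGP1 E554K, 2.21e-05 in SUGP1 G603N and 1.45e-06 in the control (edgeR). With each SUGP1 genotype fitted alone the adjusted p was 0.153 in E554K and 0.103 in G603N. In those fits only 0.321% of all tested genes passed in E554K and 0.00416% in G603N. A call lost there is thus not particular to the gene, here or for the genes below.

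SLC1A4, a neutral amino acid exchanger that carries serine, had 9.47, 10.3 and 10.3 CPM with PB and 15.8, 19.3 and 17.5 CPM with DMSO in SUGP1 E554K. In SUGP1 G603N it had 10.3, 9.72 and 16.5 CPM with PB and 18.4, 17.2 and 23.7 CPM with DMSO. Again no PB library reached a DMSO library. The log2 change was -0.81 ± 0.20 (adjusted p = 0.0147) in SUGP1 E554K and -0.70 ± 0.20 (adjusted p = 0.0407) in SUGP1 G603N. Control cells had 11.6, 12.8 and 12.9 CPM with PB and 19.2, 18.7 and 16.6 CPM with DMSO, without overlap, and there the change of -0.55 ± 0.20 missed the threshold in the fit without the line term (adjusted p = 0.13) and passed with it (adjusted p = 0.00248). PHF5A 2xTL had 15.3, 27.5 and 19.9 CPM with PB and 19.4, 29.9 and 22.5 CPM with DMSO (-0.19 ± 0.19), and SF3B1 T1080I had 17.1, 18.6 and 17 CPM with PB and 19.8, 20.3 and 19 CPM with DMSO (-0.17 ± 0.19). The SF3B1 T1080I libraries did not overlap and those of PHF5A 2xTL did. SLC7A11, SLC1A4 and the lipoprotein receptor gene VLDLR were lower with PB in all 15 lines and replicates, 3 of the 36 members, beside 2.44% of genes of at least 4 CPM. The SUGP1 E554K call ended without DMSO line 2, PB line 1 or PB line 2 (adjusted p 0.0522 to 0.0632) or with that genotype fitted alone (0.106). In SUGP1 G603N it ended without DMSO line 1 or 3 or PB line 1 or 2 (adjusted p 0.0706 to 0.184), with RLE size factors (0.0507), without the filter on low counts (0.0744) or fitted alone (0.371). SLC1A4 passed with the line term in SUGP1 E554K (adjusted p = 3.79e-05) and SUGP1 G603N (1.49e-04, edgeR).

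Among the 8 genes of translation and stress feedback, SESN2 fell with PB in both SUGP1 genotypes and the control, and CHAC1 in the control. SESN2 encodes a leucine sensor that restrains mTORC1. It had 7.68, 11 and 13.1 CPM with PB and 15.1, 19.9 and 23.2 CPM with DMSO in SUGP1 E554K, and 11.1, 10.5 and 13.9 CPM with PB and 18.1, 21.3 and 21.6 CPM with DMSO in SUGP1 G603N. In the control it had 8.93, 7.8 and 9.18 CPM with PB and 12.8, 15.9 and 18.8 CPM with DMSO. In each of these genotypes the 3 PB libraries lay below the 3 DMSO libraries. The log2 change was -0.87 ± 0.20 in SUGP1 E554K (adjusted p = 0.00759), -0.78 ± 0.19 in SUGP1 G603N (adjusted p = 0.0192) and -0.87 ± 0.20 in the control (adjusted p = 0.00685), or 1.83-fold lower in the control. In PHF5A 2xTL it had 15.2, 20.6 and 20.8 CPM with PB and 16.3, 22.4 and 20.9 CPM with DMSO (-0.08 ± 0.19), and in SF3B1 T1080I 14.5, 17.5 and 17.4 CPM with PB and 16.6, 18.4 and 16.6 CPM with DMSO (-0.06 ± 0.19), with overlapping ranges in both. The 95% interval of the change was -0.46 to 0.30 in PHF5A 2xTL and -0.44 to 0.31 in SF3B1 T1080I. The call ended in the control without PB replicate 2 (adjusted p = 0.052), in SUGP1 E554K without PB line 1 (0.0612) or fitted alone (0.182), and in SUGP1 G603N without DMSO line 2, PB line 1 or PB line 2 (0.0507 to 0.0893) or fitted alone (0.21). SESN2 passed with the line term in SUGP1 E554K (adjusted p = 3.29e-05), SUGP1 G603N (1.42e-04) and the control (4.44e-05, edgeR).

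CHAC1 encodes a glutathione-degrading enzyme. Control cells had 3.01, 3.82 and 3.02 CPM with PB and 5.84, 6.17 and 8.22 CPM with DMSO, a log2 change of -1.04 ± 0.31 (adjusted p = 0.0483), or 2.05-fold lower. The ranges did not overlap in the control. SUGP1 E554K lines had 4.96, 4.21 and 6.44 CPM with PB and 3.48, 6.65 and 10.2 CPM with DMSO (-0.39 ± 0.30), and SUGP1 G603N lines 4.74, 5.84 and 6.55 CPM with PB and 6.52, 5.94 and 8.83 CPM with DMSO (-0.31 ± 0.30). PHF5A 2xTL lines had 8.26, 9.99 and 8.37 CPM with PB and 8.44, 10.7 and 10.4 CPM with DMSO, and SF3B1 T1080I lines 5.26, 9.55 and 7.52 CPM with PB and 5.35, 11.3 and 7.99 CPM with DMSO. All 4 mutant genotypes overlapped between treatments. The control call ended without any 1 of the 6 control libraries (adjusted p 0.0568 to 0.204; 0.17 without DMSO replicate 3) and with RLE size factors (0.052), whereas with the line term its adjusted p was 0.00146. The difference between its change in the control and in each mutant passed in none of the 4 tests.

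Of the 13 enzymes of serine, one-carbon and amino acid metabolism, 1 fell in SUGP1 E554K and in SUGP1 G603N and none passed elsewhere. That gene was CTH, cystathionine gamma-lyase, which makes cysteine from cystathionine. It had 23.4, 27.8 and 31.6 CPM with PB and 37.3, 32.1 and 46.8 CPM with DMSO in SUGP1 E554K, and 22.5, 24.3 and 28.3 CPM with PB and 33.9, 37.8 and 37.3 CPM with DMSO in SUGP1 G603N. The PB libraries were below the DMSO libraries in both. The log2 change was -0.49 ± 0.14 (adjusted p = 0.0494) in SUGP1 E554K and -0.54 ± 0.14 (adjusted p = 0.0319) in SUGP1 G603N. PHF5A 2xTL had 30.4, 36.3 and 28.7 CPM with PB and 28.6, 31.6 and 32.3 CPM with DMSO (0.04 ± 0.14), SF3B1 T1080I 37.1, 31.8 and 36.4 CPM with PB and 37.9, 29.7 and 39.7 CPM with DMSO (-0.03 ± 0.14), and the control 25.6, 27.4 and 23.7 CPM with PB and 34, 31.1 and 29.2 CPM with DMSO (-0.30 ± 0.14, adjusted p = 0.353). The first 2 of these overlapped between treatments and the control did not. The SUGP1 E554K call, just inside the threshold, ended with RLE size factors (0.0652), without the filter (0.0903), fitted alone (0.307), without line 3 of both SUGP1 genotypes (0.0825), and without DMSO line 1 or 3 or PB line 1 or 2 (0.0975 to 0.225). In SUGP1 G603N it ended without the filter (0.0774), fitted alone (0.249), and without DMSO line 2 or PB line 1 or 2 (0.0977 to 0.106). CTH passed with the line term in SUGP1 E554K (adjusted p = 0.00303) and SUGP1 G603N (0.0012, edgeR). CBS, the enzyme that makes cystathionine, changed by -0.06 in SUGP1 E554K, -0.04 in SUGP1 G603N and -0.14 in the control on the log2 scale, and the serine synthesis genes PHGDH, PSAT1 and PSPH by between -0.21 and 0.23 in these 3 genotypes.

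Of the 9 transcription factors and regulators, DDIT3 (CHOP), a factor that promotes cell death under lasting stress, rose in SUGP1 E554K and no other passed. It had 11.3, 14.6 and 18.5 CPM with PB and 9.59, 7.42 and 11 CPM with DMSO there, a log2 change of 0.66 ± 0.20 (adjusted p = 0.0492). Control cells had 12.4, 10.9 and 12.6 CPM with PB and 5.74, 7.6 and 9.48 CPM with DMSO, a change of 0.65 ± 0.20 that missed the threshold (adjusted p = 0.0544). In both genotypes the PB libraries lay above the DMSO libraries. SUGP1 G603N had 10.2, 11.4 and 12.1 CPM with PB and 7.28, 10.6 and 7.97 CPM with DMSO (0.39 ± 0.20, adjusted p = 0.331), with an overlap of 1 library. PHF5A 2xTL had 9, 9.29 and 10.8 CPM with PB and 9.14, 9.39 and 9.01 CPM with DMSO (0.08 ± 0.20), and SF3B1 T1080I had 7.55, 7.07 and 8.19 CPM with PB and 9.23, 9.05 and 8.57 CPM with DMSO (-0.24 ± 0.20). Those of SF3B1 T1080I were wholly lower with PB. DDIT3 was higher with PB in all 9 SUGP1 and control lines and replicates. With the line term it passed in SUGP1 E554K (adjusted p = 0.00969) and in the control (adjusted p = 0.00926), and in the control it also passed with DESeq2 (0.0102) and without DMSO replicate 3 (0.0296). The SUGP1 E554K call ended without the filter (0.154), fitted alone (0.266), without line 3 of both SUGP1 genotypes (0.0926), and without DMSO line 1 or 2 or PB line 2 or 3 (0.126 to 0.293). DDIT3 overlaps MARS1 and MBD6 on the opposite strand, and no source states whether the counting used strand. ATF3, ATF5, CEBPB, CEBPG and TRIB3 changed by between -0.16 and 0.13 on the log2 scale in the 5 genotypes.

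**Figure D3:**
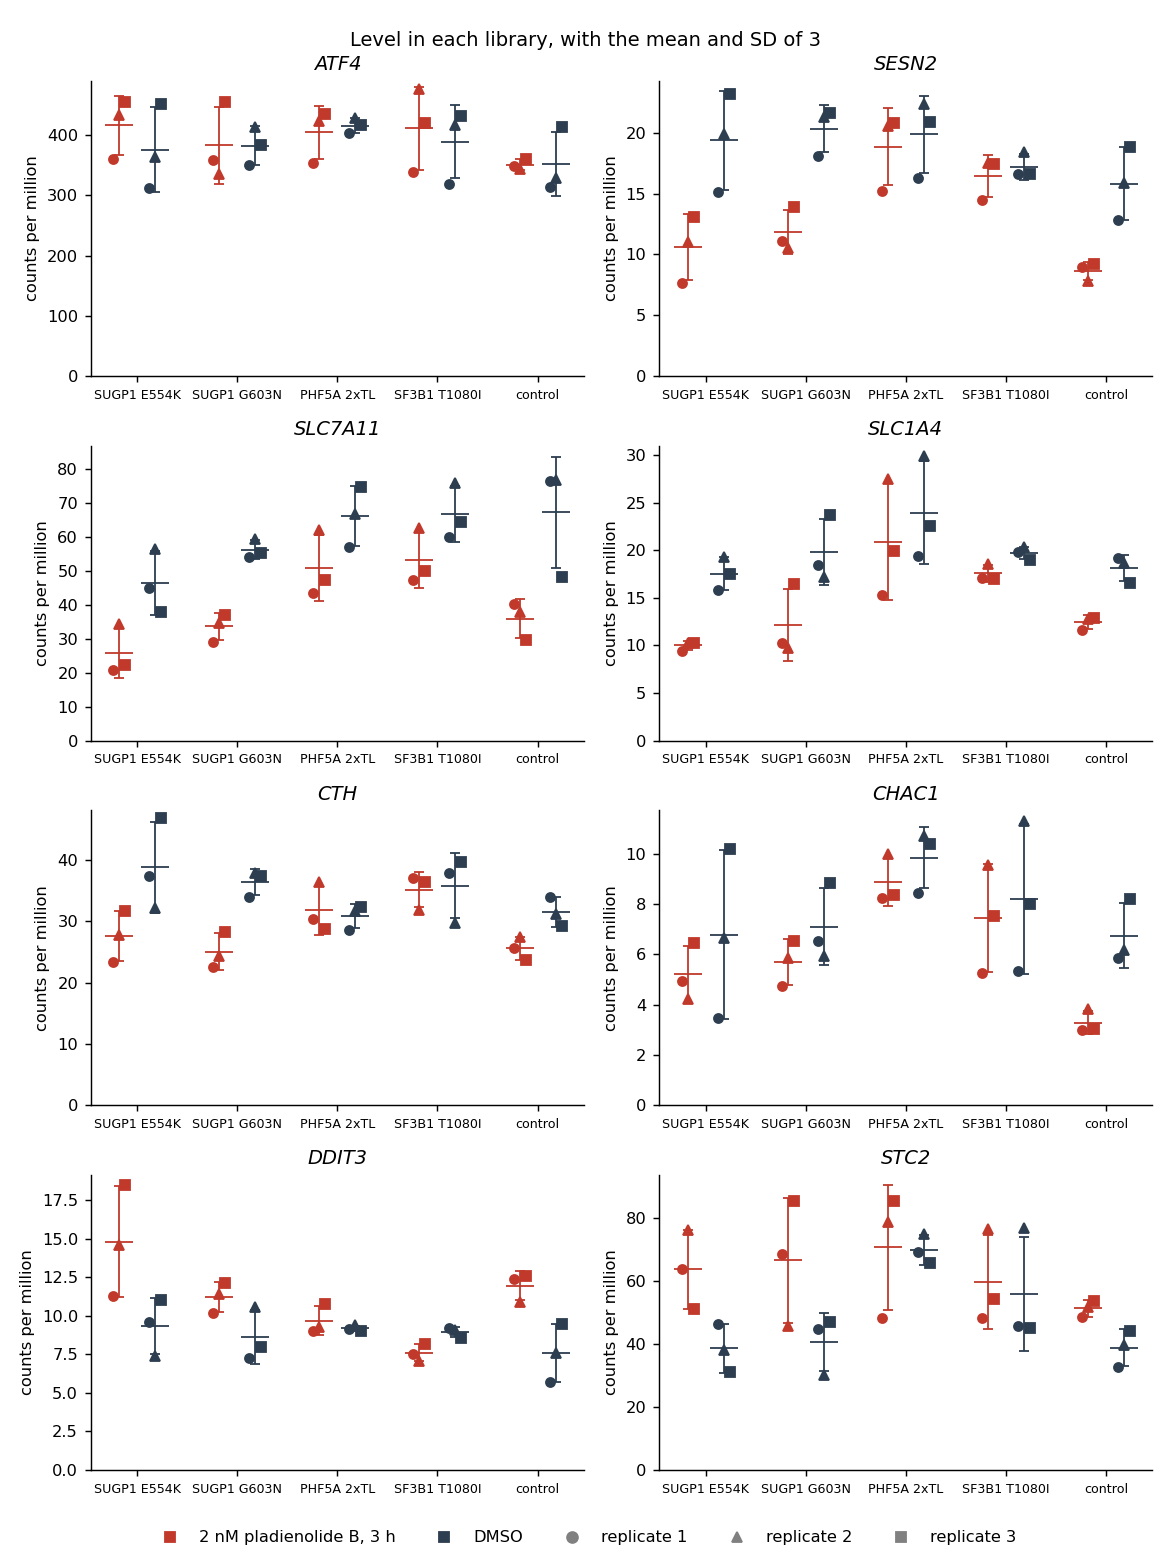
CPM of ATF4, SESN2, SLC7A11, SLC1A4, CTH, CHAC1, DDIT3 and STC2 in each library (points), PB left of DMSO within each genotype, with the mean and SD of 3 libraries (lines and bars). SESN2 and SLC7A11 are lower with PB in both SUGP1 genotypes and the control, and ATF4 overlaps between treatments in every genotype.

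A further 7 members did not pass in the 30-library edgeR fit without the line term but passed with that term in at least 1 genotype. Under other settings without that term, STC2, DDIT4 and VLDLR passed in the control with its groups fitted alone, and DDIT4 also with DESeq2 and without DMSO replicate 1. STC2 and VLDLR passed in SUGP1 E554K with DESeq2, and VLDLR there also without line 3 of both SUGP1 genotypes, DMSO line 3 or PB line 2. In SUGP1 G603N STC2 passed without PB line 2 and VLDLR without DMSO line 3, and EIF4EBP1, GPT2, PCK2 and JDP2 passed under no other setting. STC2, a secreted glycoprotein of calcium and phosphate balance, had 63.8, 76.1 and 51.1 CPM with PB and 46.4, 38.2 and 31.1 CPM with DMSO in SUGP1 E554K, and 68.6, 45.8 and 85.4 CPM with PB and 44.6, 30.1 and 47.1 CPM with DMSO in SUGP1 G603N. The control had 48.5, 51.8 and 53.7 CPM with PB and 32.7, 39.8 and 44.1 CPM with DMSO. STC2 was higher with PB in every line of these genotypes, and among them SUGP1 G603N alone overlapped between treatments. The log2 change was 0.73 (adjusted p = 0.0838, and 1.78e-04 with the line term) in SUGP1 E554K, 0.71 (0.1, and 3.38e-04) in SUGP1 G603N and 0.40 (0.511, and 0.0303) in the control. The log2 changes and adjusted p that follow are from the edgeR fit with the line term. EIF4EBP1 rose in SUGP1 E554K (0.34, adjusted p = 0.0106), SUGP1 G603N (0.31, 0.028) and the control (0.35, 0.0111). In those genotypes VLDLR fell (-0.71, -0.50 and -0.70, with adjusted p = 0.00102, 0.0211 and 0.00119). GPT2, an alanine transaminase, fell there too (-0.37, -0.34 and -0.37, with adjusted p = 0.0172, 0.0314 and 0.0169). PCK2, the mitochondrial PEP carboxykinase, fell in SUGP1 E554K (-0.59, 0.00359). In the control, the mTORC1 inhibitor gene DDIT4 fell (-0.90, 0.0116), as did JDP2, which encodes a repressor of the AP-1 family (-0.53, 0.0376). DDIT4 rested in part on 1 library, with 3.71, 3.93 and 3.8 CPM with PB and 4.69, 6.6 and 11.3 CPM with DMSO. Without the line term its change was -0.98, and -0.59 (adjusted p = 0.483) when DMSO replicate 3 was left out.

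Whether the response differed between genotypes was tested directly. Averaged over the SUGP1 genotypes, the response of SESN2 was 0.76 lower on the log2 scale than averaged over PHF5A 2xTL and SF3B1 T1080I (-0.76 ± 0.19, 95% interval -1.14 to -0.38, adjusted p = 0.0365, edgeR; 3.46e-04 with the line term). It was the 1 member of 36 to pass, beside 1.81% of all tested genes, and 7 members had an unadjusted p under 0.05. The change per line ran from -1.02 to -0.64 in the 6 SUGP1 lines and from -0.20 to 0.07 in the 6 pocket lines, without overlap. The call ended without the filter (adjusted p = 0.0575) and without any of 7 libraries (adjusted p 0.0509 to 0.0732): SUGP1 E554K PB line 1 or 2, SUGP1 G603N PB line 2 or DMSO line 2, PHF5A 2xTL PB line 2 or DMSO line 1, and SF3B1 T1080I PB line 2. With the line term 6 members passed (6% of tested genes, 13.4% of those of at least 4 CPM): CTH (adjusted p = 0.00261), SLC1A4 (0.00256) and SLC7A11 (0.0077) with SESN2 on the lower side, and STC2 (8.34e-04) and DDIT3 (0.0273) on the higher side.

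Against the control response, no member passed in any mutant, where 0% of tested genes passed in SUGP1 E554K, 0% in SUGP1 G603N, 0.274% in PHF5A 2xTL and 0.321% in SF3B1 T1080I. At an unadjusted p under 0.05 there were 0, 0, 3 and 4 members, and DESeq2 gave 0 in each. These 4 differences share the control libraries. The lowest p in PHF5A 2xTL were those of SESN2, whose response was 0.80 ± 0.27 above the control's (adjusted p = 0.38), CHAC1 (0.89) and DDIT3 (-0.58), and in SF3B1 T1080I those of DDIT3 (-0.89 ± 0.28, adjusted p = 0.261), SESN2 (0.81) and CHAC1 (0.90). With the line term SESN2 passed in PHF5A 2xTL (0.78, adjusted p = 0.0218; 1.7% of tested genes, 3.96% of those of at least 4 CPM), and SESN2 (0.79, 0.0181), SLC7A11 (0.55, 0.0484) and DDIT3 (-0.91, 0.044) in SF3B1 T1080I (1.9% and 4.53%). For SUGP1 the SESN2 response differed from the control's by 0.00 in E554K (95% interval -0.52 to 0.52) and by 0.09 in G603N (-0.45 to 0.63), which does not show that they respond alike.

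Without drug, no member passed between any mutant and the control, where 0% of tested genes passed in SUGP1 E554K, 0.0127% in SUGP1 G603N, 0.00954% in PHF5A 2xTL and 0% in SF3B1 T1080I, and none between the SUGP1 genotypes (0%). At an unadjusted p under 0.05 there were 2, 3, 5 and 5 members against the control and 0 between the SUGP1 genotypes, and DESeq2 gave 0 in each. In PHF5A 2xTL 30 of 36 members were above 0, with a median log2 difference of 0.26, beside 0.01 over genes of at least 4 CPM. In SF3B1 T1080I 31 of 36 were above 0, with a median of 0.19. In SUGP1 E554K 18 of 36 were above 0 (median -0.00) and in SUGP1 G603N 24 (median 0.07). With any 1 library left out the median ran from -0.10 to 0.16 in SUGP1 E554K, from 0.00 to 0.20 in SUGP1 G603N, from 0.22 to 0.38 in PHF5A 2xTL and from 0.10 to 0.26 in SF3B1 T1080I. Each of the highest values was that without control DMSO replicate 3, where 25, 26, 30 and 32 members were above 0, and the SUGP1 and SF3B1 T1080I ranges overlap. Without SF3B1 T1080I DMSO line 2 the median there was 0.10, with 26 members above 0. All 4 comparisons share the control DMSO libraries, so they are not independent of each other. The 3 PHF5A 2xTL libraries lay wholly above the control's for 10 members (5.91% of tested genes) and wholly below for 0 (6.67%): ATF3, CEBPG and NUPR1 among the factors, CHAC1, STC2 and the tRNA export gene XPOT among the feedback genes, PSAT1 and the mitochondrial folate enzyme gene MTHFD2 among the enzymes, and SLC1A4 and SLC7A5 among the transporters. In SF3B1 T1080I it was 4 members, ATF3, STC2, XPOT and the proline synthesis gene ALDH18A1 (6.65%), and 0 below (5.29%). These shares are of all tested genes and were not taken among genes of at least 4 CPM. NUPR1 was near the floor, with 0.228, 0.214 and 0.315 CPM in PHF5A 2xTL and 0.0233, 0.188 and 0.0448 CPM in the control.

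**Figure D4:**
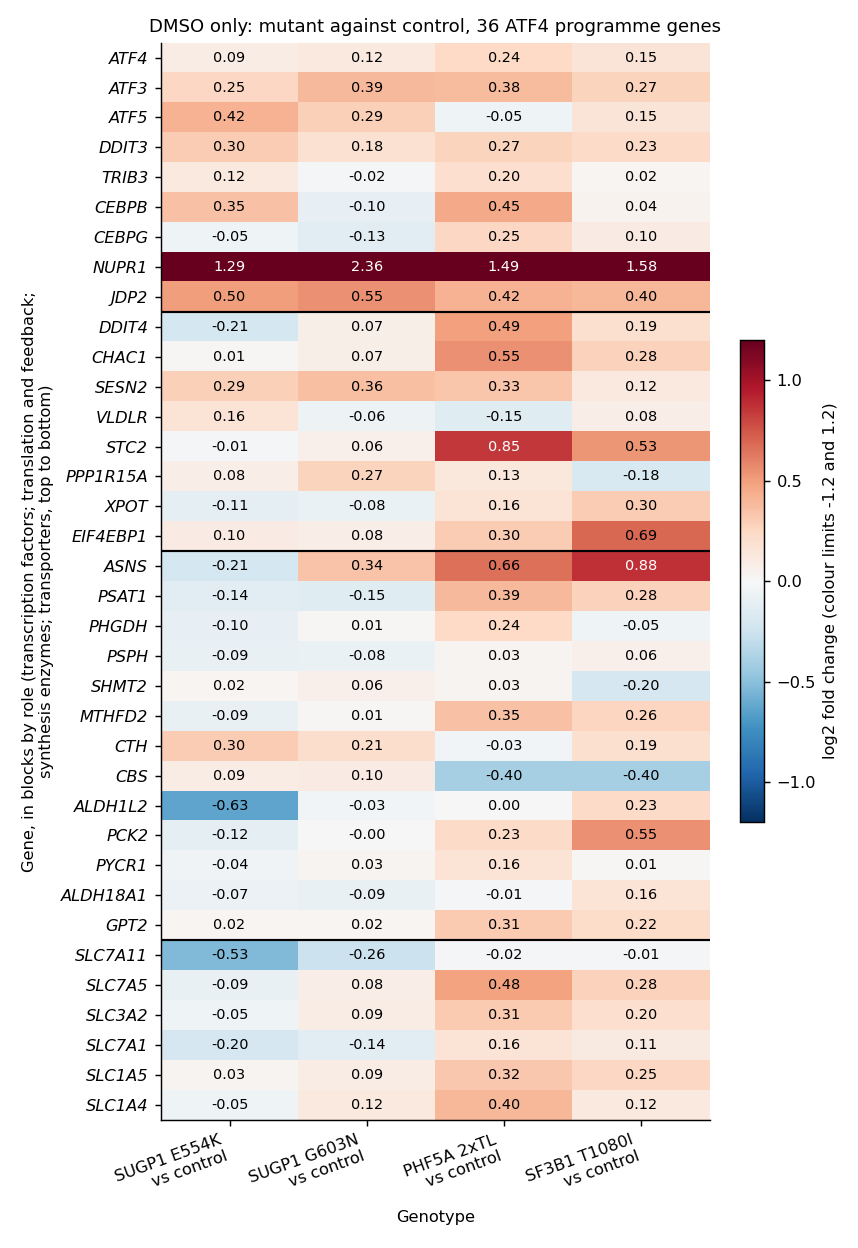
Log2 difference of each member between mutant and control cells with DMSO (colour, red higher in the mutant), in the 4 mutant genotypes, members grouped by role. Colours above 0 prevail in PHF5A 2xTL and SF3B1 T1080I, where 30 and 31 of 36 members were above 0, and no member passed the test in any genotype.

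The lowest p in PHF5A 2xTL belonged to STC2, with 69.1, 75 and 65.6 CPM in the mutant and 32.7, 39.8 and 44.1 CPM in the control. The ranges were far apart, and the log2 difference was 0.85 ± 0.24 (adjusted p = 0.668, and 0.0462 with these groups fitted alone). PSAT1 (0.39) and MTHFD2 (0.35) followed. In SF3B1 T1080I EIF4EBP1 had 159.1, 213.8 and 106.4 CPM in the mutant and 86.3, 92.6 and 118.2 CPM in the control, a log2 difference of 0.69 ± 0.19 (adjusted p = 0.503). Line 3 lay inside the control range, and without it the difference was 0.93 (adjusted p = 0.0242). XPOT (0.30) and PCK2 (0.55) followed. In SUGP1 E554K the lowest p belonged to SLC7A11 (-0.53), CTH (0.30) and ATF5 (0.42), and in SUGP1 G603N to NUPR1 (2.36), ATF3 (0.39) and JDP2 (0.55). NUPR1 was near the floor, with 0.446, 0.736 and 0.21 CPM in SUGP1 G603N and 0.0233, 0.188 and 0.0448 CPM in the control, so its difference rests on few reads. Between SUGP1 E554K and SUGP1 G603N the lowest p belonged to CEBPB (0.45), ALDH1L2 (-0.60) and SLC7A11 (-0.28).

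Levels in single lines were set beside those of the nearest genes. EIF4EBP1 lies on chromosome 8, and the median log2 difference of its 30 nearest genes of at least 4 CPM from the control was 0.90, 0.89 and 0.04 in SF3B1 T1080I lines 1, 2 and 3 with DMSO, beside 0.70, 1.12 and 0.12 for EIF4EBP1 itself. The lines with high EIF4EBP1 were thus those with high neighbours. CHAC1, on chromosome 15, was 0.61 above the control in SUGP1 E554K line 3, where its neighbours were at 0.81, and 0.40 in SUGP1 G603N line 3, where they were at 0.89. It was as high in PHF5A 2xTL lines 2 and 3 (0.68 and 0.64) and SF3B1 T1080I line 2 (0.76), where the neighbours were at -0.06, -0.04 and -0.20. CBS, on chromosome 21, was below the control in PHF5A 2xTL lines 2 and 3, with -0.38 and -0.50 beside 0.59 and 0.46 for its neighbours. The control libraries were spread, with 168.6, 202.8 and 288.8 CPM of CBS with DMSO, beside 164.5 and 151.5 CPM in those lines. In line 1 of SUGP1 E554K and of SUGP1 G603N CBS was at 0.35 and 0.45, beside 0.73 and 0.75.

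**Figure D5:**
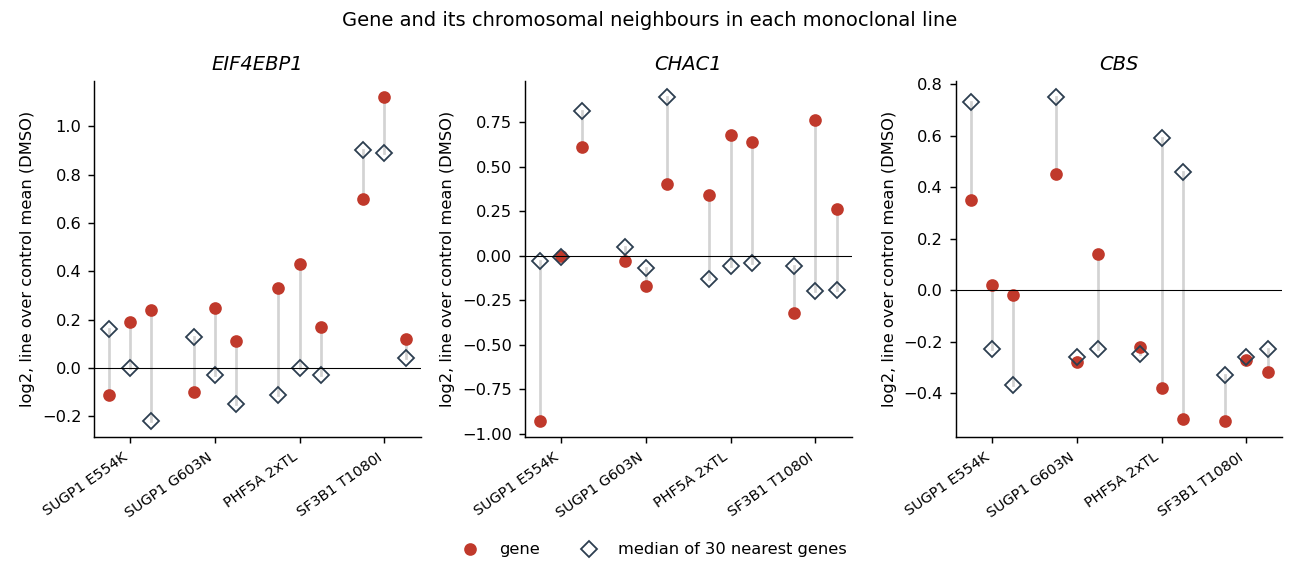
Log2 difference from the control mean with DMSO of EIF4EBP1, CHAC1 and CBS (filled points) and of the median of the 30 nearest genes of at least 4 CPM (open diamonds) in each mutant line, joined by a line. SF3B1 T1080I lines 1 and 2 stand out at 0.70 and 1.12 for EIF4EBP1, with neighbours at 0.90 and 0.89.

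Further genes of the pathway were taken from 4 lists. Of 17 genes for the eIF2 kinases, their phosphatase and the eIF2 and eIF2B subunits, none passed in any genotype with PB, and at an unadjusted p under 0.05 there were 4 in SUGP1 E554K, 0 in each of SUGP1 G603N, PHF5A 2xTL and SF3B1 T1080I, and 4 in the control. With the line term OMA1, a mitochondrial protease that triggers the response, fell in the control (-0.53, adjusted p = 0.0177) and EIF2S3, the gamma subunit of eIF2, rose (0.28, 0.048). Of 12 aminoacyl-tRNA synthetase genes only AARS1 passed, in SUGP1 E554K (-0.39 ± 0.11, adjusted p = 0.0481). With the line term AARS1 (-0.32, 0.0165) and NARS1 (-0.27, 0.0488) fell in SUGP1 G603N. Among 33 tested genes of 34 other reported ATF4 targets, the glutamine transporter SLC38A2 fell in the control, with 50.6, 54.3 and 47.7 CPM with PB and 109.1, 114.5 and 77.2 CPM with DMSO (-0.98 ± 0.15, adjusted p = 1.86e-04), and in SUGP1 E554K (-0.60, 0.0197). PB libraries of the control lay wholly below its DMSO libraries. GPCPD1, a phosphodiesterase of glycerophosphocholine, fell in SUGP1 E554K (-0.78, adjusted p = 8.16e-04), SUGP1 G603N (-0.82, 5.13e-04) and the control (-0.70, 0.002), and the GTPase gene RIT1 fell in SUGP1 G603N (-0.66, 0.0217). The collagen receptor gene DDR2 rose in SUGP1 E554K (1.40, 0.00777), SUGP1 G603N (1.40, 0.00842) and the control (1.22, 0.0184), and the pseudokinase gene TRIB1 rose in the control (0.65, 0.0492). Of 20 unfolded protein response genes of the ATF6 and XBP1 branches, ERN1, the IRE1 sensor, fell in SUGP1 E554K (-0.67, adjusted p = 0.0393), SUGP1 G603N (-0.75, 0.0213) and the control (-0.96, 0.00231), and no other passed. With the line term SEL1L, a subunit of the ER degradation machinery, fell in SUGP1 E554K (-0.56, adjusted p = 9.26e-05), SUGP1 G603N (-0.50, 3.90e-04) and the control (-0.65, 1.19e-05), as did the transcription factor gene CREB3L2 (-0.41, -0.34 and -0.37; 0.00248, 0.0138 and 0.00632). In SUGP1 E554K EDEM1, which takes part in the same degradation, fell (-0.46, 0.0195) and the chaperone gene DNAJB9 rose (0.61, 0.0046). Among the 33 other reported targets the line term gave 2 higher and 4 lower in SUGP1 E554K, 3 higher and 3 lower in SUGP1 G603N, and 2 higher and 5 lower in the control. Beside these, 11.9%, 9.43% and 9.84% of all tested genes passed with that term. Among genes of at least 4 CPM it was 26%, 19.6% and 21.4%, so the counts do not set these targets apart. With each SUGP1 genotype fitted alone every one of its calls in these lists was lost. The adjusted p of GPCPD1 was then 0.0802 in E554K and 0.111 in G603N, and 0.176 to 0.369 for the others (edgeR). In those fits only 0.321% of all tested genes passed in E554K and 0.00416% in G603N, so the loss is not particular to these genes. Leaving out any 1 library did not end the calls of GPCPD1 or those of SLC38A2 and ERN1 in the control. In the control DDR2 was lost without DMSO replicate 3 or PB replicate 1 or 3 (adjusted p 0.0644 to 0.137) and TRIB1 without any 1 of the 6 libraries (0.102 to 0.22). In SUGP1 E554K DDR2 was lost without DMSO or PB line 2 (0.0651 to 0.0793), ERN1 without any library but DMSO line 3 (0.0691 to 0.193), and both AARS1 (0.0711 to 0.245) and SLC38A2 (0.0581 to 0.188) without DMSO line 1 or 2 or PB line 1 or 3. In SUGP1 G603N DDR2 was lost without DMSO line 1 (0.0655), RIT1 without DMSO line 1 or PB line 2 or 3 (0.0854 to 0.197) and ERN1 without DMSO line 1 or 2 or PB line 2 or 3 (0.0506 to 0.152). In the SUGP1 response minus that of the SF3b pocket genotypes, GPCPD1 (-0.76, 0.00233) and DDR2 (1.34, 0.017) passed.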

How the data were processed

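RNA was poly(A)-selected and sequenced as 150-base paired ends with a CORALL kit, per the labels' protocols. Values are estimated counts per gene as deposited by the authors, and 65.5% of values above 0 were not whole. STAR, UMI-tools, SAMtools 1.10 and hg38 are named, per the submitters' processing notes; the counter, its annotation and its treatment of strand and of multi-mapped reads are not given. Counts were rounded and tested with edgeR 4.0.16 in R 4.3.3 (filterByExpr, TMM, quasi-likelihood) in 1 model of 10 group means over 30 libraries with 15 contrasts, adjusted by Benjamini-Hochberg over 31444 genes, with 0.05 as the threshold. The script was tested on simulated data. Standard errors are the log2 fold change over the root of F, so approximate; limma 3.58.1 was loaded with edgeR. Alternatives used DESeq2 1.42.0, RLE factors, no filter, only the groups compared, a term for line, and leaving out libraries. CPM use TMM-scaled totals; coordinates and overlaps come from GENCODE 29.

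Same-numbered PB and DMSO libraries pair: the labels give mutant numbers to a monoclonal line, and deviations from group means correlated at 0.212 to 0.837 over 11998 genes, with 15 of 15 best matched to their own number. All 36 members are named; values per library are given for ATF4 and each called member, and where none passed the 3 of lowest p are named. Further members were given values after they were seen to pass with the line term. Members and lists were chosen with earlier results of these data known, and no list is independent support.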

Additional observations from a re-analysis of the deposited data

Results flagged for a closer look

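The response of SESN2 to PB differed between genotypes in a direct test: averaged over SUGP1 E554K and SUGP1 G603N it was -0.76 on the log2 scale relative to its average over PHF5A 2xTL and SF3B1 T1080I (SE 0.19, adjusted p = 0.0365, edgeR). The call ended without the filter on low counts (adjusted p = 0.0575, edgeR) and without any 1 of 7 libraries (0.0509 to 0.0732). Of all tested genes 1.81% passed in this test, so such a difference was not particular to SESN2.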

How the results depend on the processing

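No call of a single gene changed sign under any alternative, but medians over the members near 0 did. The share of all genes called, given in brackets, also moved with the setting. For PB against DMSO, the members called in SUGP1 E554K numbered 5 (4.39%). They numbered 3 without the filter on low counts (1.65%) and 0 with its groups fitted alone (0.321%). With the line term as replicate block there were 10 (11.9%), with DESeq2 7 (9.42%), and with any 1 library left out 1 to 5 (1.99% to 5.76%). In SUGP1 G603N there were 4 (3.85%), and 2 without the filter (1.39%), 0 alone (0.00416%), 8 with the block (9.43%) and 0 to 4 with a library left out (2% to 7.94%). In the control there were 3 (4.44%), and 8 alone (9.91%), 11 with the block (9.84%), 5 with DESeq2 (8.53%) and 1 to 3 with a library left out (1.97% to 2.91%). For the SUGP1 response minus that of the SF3b pocket genotypes there was 1 (1.81%), and 6 with the block (6%). There were 0 without the filter, 3 without line 3 of both SUGP1 genotypes, 3 with DESeq2 and 0 to 3 with a library left out. Against the control response the block gave 1 in PHF5A 2xTL (1.7%) and 3 in SF3B1 T1080I (1.9%), in place of 0 (0.274% and 0.321%). In DMSO, PHF5A 2xTL against the control gave 1 with these groups alone in place of 0, and SF3B1 T1080I 0 to 1 with a library left out. The cause was not tested, apart from the fewer libraries where some were left out. Of 215 values for counts of members, 174 kept their size within 1.5 times, and of 452 for single called genes 343 kept their call and 109 lost it. Between mutants and control the replicate number pairs nothing (correlation -0.216 to 0.289, 4 of 12 best with their own); with it as a replicate block the DMSO comparisons gave 0 calls. The median SE of a member's change was 0.20 in the control and 0.27 for a difference of responses. Changes well above that size could also fail to pass. Among them were SLC1A4 in the control (-0.55, adjusted p = 0.13, edgeR) and SESN2 in the PHF5A 2xTL response minus the control's (0.80, adjusted p = 0.38, edgeR). The lack of a call does not show the lack of such a change.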
